A study of Mus musculus with 19 samples.

Results

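The 45 genes described here encode the machinery of mitosis: the kinase Cdk1 with its cyclins and activators, the Polo and Aurora kinases, the spindle checkpoint, the centromere and kinetochore, condensin I, the regulators of anaphase and the proteins of the central spindle and cytokinesis. They were listed by symbol, and all 45 were found among the 47069 genes counted in the RNA-seq libraries. The libraries came from GFP-positive cells sorted from retinas of mouse embryos at E16.5, in 3 replicates for each of 2 populations. Ipsilateral retinal ganglion cells (iRGCs), whose axons avoid the midline at the optic chiasm, were taken from Slc6a4-Cre (ET33 Sert-Cre) mice that carried Sun1-GFP behind a stop cassette. Contralateral retinal ganglion cells (cRGCs), whose axons cross the midline, were taken from Pou4f2-Cre (Brn3b knock-in) mice with the same reporter after the ventrotemporal retina had been cut away. Both populations were labelled as wild type on the C57/DBA F1 background, pooled male and female embryos, and shared the CAG-driven Sun1-GFP reporter, which marks the nuclear envelope of every cell in which Cre has acted and of the daughters of that cell. The labels do not say which embryos went into each library, so the p-values measure the spread between these libraries only.

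Cells entering mitosis are driven by Cdk1 bound to a B-type cyclin. Condensin compacts the chromosomes, kinetochores built on the centromere attach them to the spindle, and the checkpoint holds back the anaphase-promoting complex until every chromosome is attached. In the embryonic retina, dividing progenitors use this machinery while newborn retinal ganglion cells have left the cell cycle, and most of its genes are transcribed mainly in G2 and mitosis.

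The libraries held 28193178, 29759011 and 30874653 reads counted on genes in iRGC replicates 1, 2 and 3, and 28274471, 30454674 and 33638083 in the cRGC replicates. Levels are given as CPM, reads counted on a gene relative to the TMM-scaled library size of edgeR, and fold changes are those of iRGCs over cRGCs. Before the mitosis genes, the genes that mark the populations were read. Slc6a4, the serotonin transporter whose regulatory sequences drive Cre in the iRGC line, had 2.06, 33.4 and 116 CPM in iRGC replicates 1, 2 and 3 and 48.1, 35.4 and 30.5 CPM in the cRGC replicates. The library labelled iRGC replicate 1 lay below all cRGC libraries, and the difference between the populations did not pass (log2 fold change 0.41 ± 0.93 SE, edgeR adjusted p = 0.768). Its direction was not stable: the log2 fold change was -1.11 without iRGC replicate 3 (edgeR adjusted p = 0.345), -0.86 with limma voom and -0.54 with the replicate number as a block. Zic2, the transcription factor of ipsilateral ganglion cells, had 134, 173 and 157 CPM in iRGCs and 57.0, 60.2 and 65.7 CPM in cRGCs, with no overlap (1.34 ± 0.13 SE, edgeR adjusted p = 0.000209). Pou4f2, the driver gene of the cRGC line, had 74.8, 134 and 98.3 CPM in iRGCs and 191, 196 and 293 CPM in cRGCs. The library names carry 1 series for all iRGC libraries and another for all cRGC libraries, so an effect of the series cannot be told apart from the population.

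Transcripts of the mitotic machinery were more abundant in iRGCs. Summed over the 45 genes, they reached 8351, 7071 and 6649 CPM in iRGC replicates 1, 2 and 3, and 1054, 2068 and 1425 CPM in the cRGC replicates, so that the lowest iRGC library lay above the highest cRGC library. Of the 45 genes, 44 passed the filter on low counts, and these 44 had at least 10 counts in each of the 6 libraries. Of the 44, 43 were higher in iRGCs at an edgeR adjusted p under 0.1, against 23.3% of the 15941 genes tested. None was lower, against 23.1% of all tested genes, and 1 did not pass. The 43 genes had adjusted p-values between 0.000201 and 0.00479 in edgeR's quasi-likelihood test. Besides passing, 42 had a log2 fold change above 1, against 12.1% of all tested genes. For 43 genes, each iRGC library lay above each cRGC library, against 27.1% of all tested genes.

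The sizes of the differences lay close together. The median log2 fold change of the 44 genes was 2.41, a 5.32-fold difference, against a median of -0.0031 over all tested genes. For 38 of the 44 genes the log2 fold change was above 2, which 7.63% of all tested genes reached, and for 0 it was above 3. The highest was that of Aspm, at 2.76. Cdc25b, Incenp, Racgap1, Ncapd2, Bub3 and Pttg1 were the 6 genes below 2. In bulk samples, fewer cells that contain these transcripts and fewer transcripts per cell cannot be told apart.

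**Figure D1:**
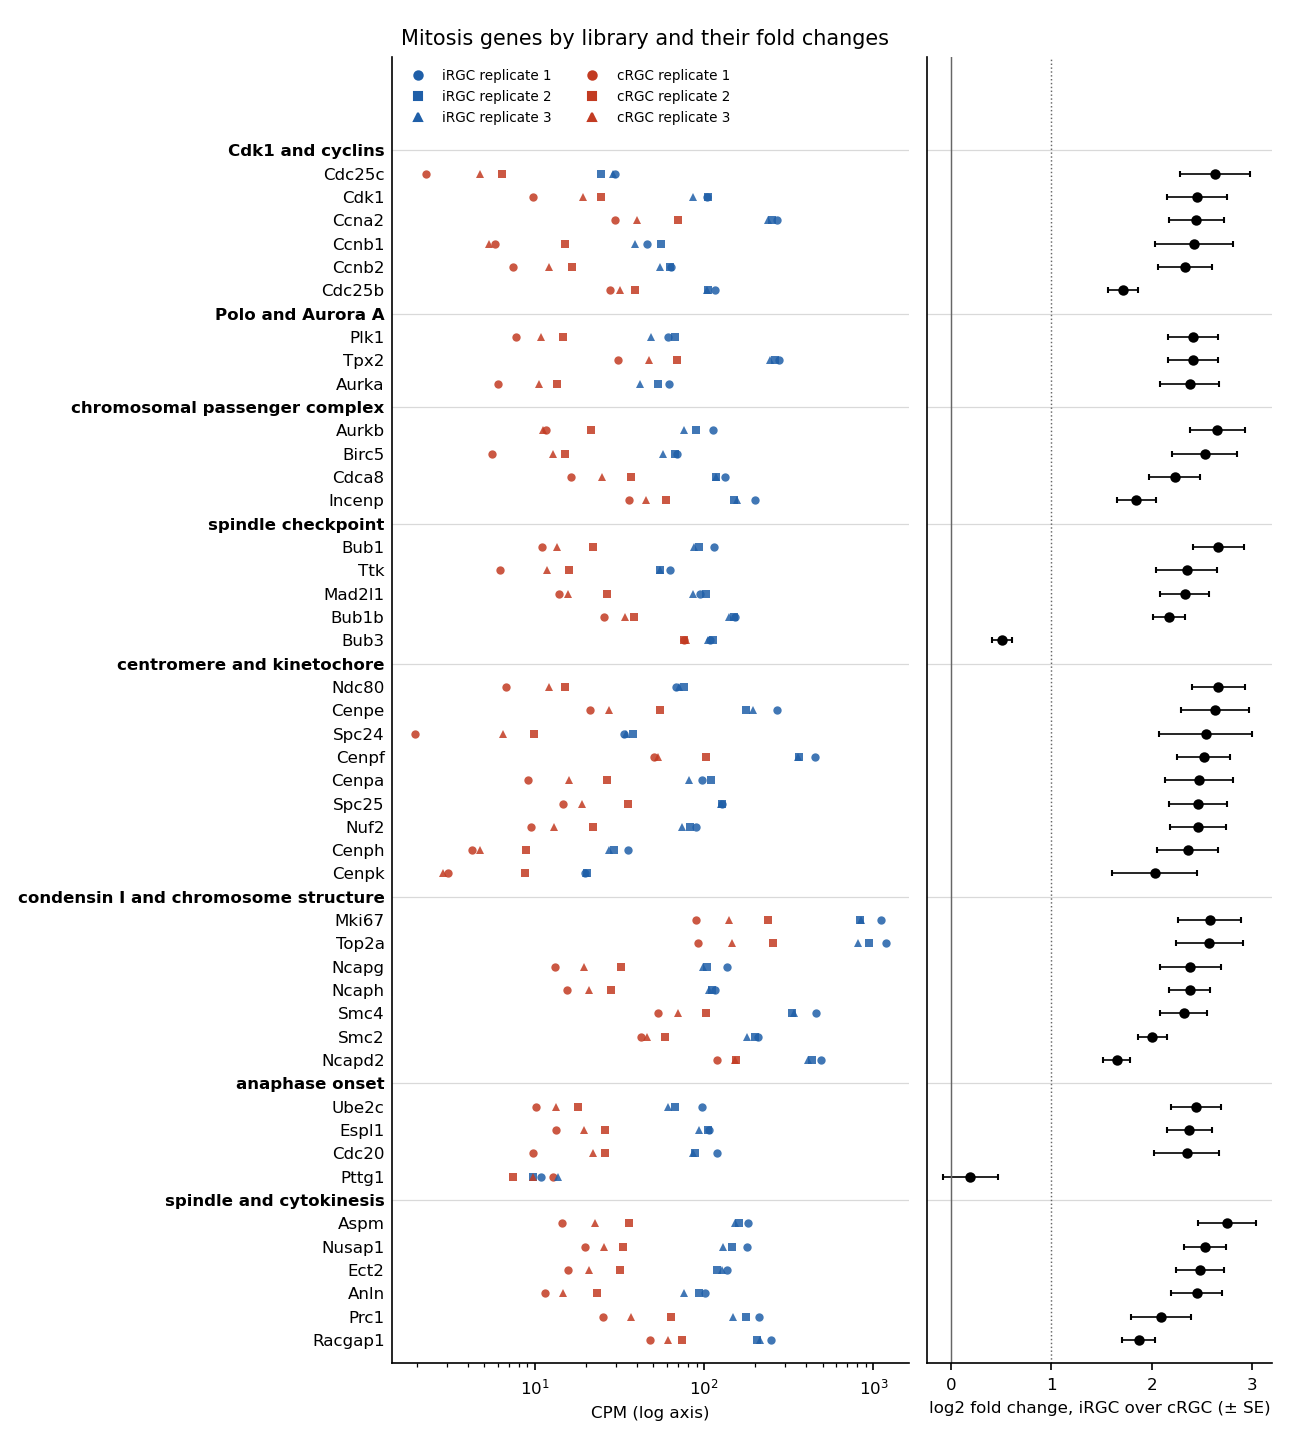
Level and fold change of 44 mitosis genes, grouped by role. Left, CPM on a log axis for each library (blue, iRGCs; red, cRGCs; symbols mark the replicates). Right, log2 fold change of iRGCs over cRGCs with its SE, with lines at 0 and 1. The blue and red points are apart for 43 genes and mixed for Pttg1, and Bub3 lies at 0.51 while most genes lie between 2 and 2.76. Cks2 was not tested and is left out.

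Genes of G2 and mitosis are known to carry 2 short motifs near their start sites, the CCAAT box, bound by NF-Y, and the cell cycle homology region with the core TTTGAA, bound by the MuvB complex with B-Myb and FoxM1 or with repressors. RefSeq promoter windows of the GRCm38.p6 assembly, from 250 bases before to 50 after the start, were at hand for 38 of the 45 genes. The genes without a window were Ccna2, Cdc25c, Tpx2, Aurkb, Incenp, Spc24 and Smc4. Stretches from 140 bases before to 20 after the start are shown for 6 genes from 5 of the role groups that hold both motifs, and for the condensin subunit Ncaph, which holds neither. In these 7 genes the RefSeq start lies within 10 bases of the GENCODE start. The stretches read in the direction of the gene, with each CCAAT and TTTGAA, on either strand, in capitals (ATTGG and TTCAAA are the reversed forms). They lie at chr9:70421535-70421694 (minus strand), chr9:83834549-83834708 (plus), chr1:189688067-189688226 (minus), chr11:99024170-99024329 (minus), chr15:99651637-99651796 (minus), chr1:139454633-139454792 (plus) and chr2:127133935-127134094 (minus).
Ccnb2: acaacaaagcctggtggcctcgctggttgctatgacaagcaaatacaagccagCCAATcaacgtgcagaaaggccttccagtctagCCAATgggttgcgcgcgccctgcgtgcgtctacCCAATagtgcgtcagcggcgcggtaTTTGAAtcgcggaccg
Ttk: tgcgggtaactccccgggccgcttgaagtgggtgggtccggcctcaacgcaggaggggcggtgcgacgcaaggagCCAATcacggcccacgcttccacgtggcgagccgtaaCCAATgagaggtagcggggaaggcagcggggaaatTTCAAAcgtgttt
Cenpf: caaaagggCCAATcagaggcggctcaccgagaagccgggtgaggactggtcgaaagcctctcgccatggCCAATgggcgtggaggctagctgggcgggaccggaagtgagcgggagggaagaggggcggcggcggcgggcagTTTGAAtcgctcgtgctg
Top2a: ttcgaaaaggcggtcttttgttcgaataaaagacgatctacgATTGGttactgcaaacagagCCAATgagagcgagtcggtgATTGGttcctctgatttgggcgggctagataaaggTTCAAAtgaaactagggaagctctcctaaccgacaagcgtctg
Racgap1: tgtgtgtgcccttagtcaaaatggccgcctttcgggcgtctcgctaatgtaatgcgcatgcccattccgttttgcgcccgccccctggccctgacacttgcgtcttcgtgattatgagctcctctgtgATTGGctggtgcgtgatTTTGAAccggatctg
Aspm: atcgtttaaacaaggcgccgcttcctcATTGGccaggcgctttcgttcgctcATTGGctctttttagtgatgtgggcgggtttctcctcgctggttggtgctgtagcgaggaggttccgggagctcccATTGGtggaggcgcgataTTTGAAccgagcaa
Ncaph: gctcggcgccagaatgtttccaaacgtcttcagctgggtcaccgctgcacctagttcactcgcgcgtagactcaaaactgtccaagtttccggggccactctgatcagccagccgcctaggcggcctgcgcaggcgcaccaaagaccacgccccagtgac

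In the printed stretches, Ccnb2, Top2a and Aspm hold 3 CCAAT each and 1 TTTGAA, Ttk and Cenpf hold 2 CCAAT and 1 TTTGAA, and Racgap1 holds 1 of each. In these stretches the TTTGAA lies downstream of the CCAAT boxes, but in the whole windows Ccnb2 and Top2a hold another TTTGAA farther upstream. Over the whole windows, CCAAT was found in 30 of the 38 genes (78.9%), against 37.9% of the windows of 27025 genes and 38.4% of those of 11340 tested genes. At least 2 CCAAT were found in 19 (50%), against 12.2% and 14.6%. TTTGAA was found in 25 genes (65.8%), against 18.1% and 11.2%. Its variant TTTAAA was found in 9 (23.7%), against 13.2% and 8.97%. Windows with both CCAAT and TTTGAA belonged to 23 genes (60.5%), against 7.12% and 4.81%. In 14 of these 23 every TTTGAA lay downstream of every CCAAT, in 5 more at least 1 did, and in 4 none did. Both strands were searched, a base could count for both motifs, and a match is a description of the sequence and not of a bound site.

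The fold changes of genes with and without the motifs overlapped. The 23 genes with both motifs had a median log2 fold change of 2.38, between 0.51 for Bub3 and 2.76 for Aspm. The 6 with neither, Birc5, Mad2l1, Nuf2, Ncaph, Pttg1 and Nusap1, had a median of 2.42, between 0.19 for Pttg1 and 2.53 for Nusap1.

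Cdk1, the kinase that drives entry into mitosis, and its cyclins and activators were all higher in iRGCs, 6 tested genes whose median log2 fold change was 2.44. Cdk1 had 104, 104.5 and 85.4 CPM in iRGCs and 9.73, 24.6 and 19.3 CPM in cRGCs (log2 fold change 2.45 ± 0.30 SE, edgeR adjusted p = 0.000370). The cyclins Ccna2, Ccnb1 and Ccnb2 differed by 2.45, 2.43 and 2.33 on the log2 scale. The phosphatases Cdc25b and Cdc25c, which remove the inhibitory phosphates of Cdk1, were the lowest and the highest of the group. Cdc25c had 29.7, 24.4 and 28.8 CPM in iRGCs and 2.27, 6.35 and 4.71 CPM in cRGCs (2.63 ± 0.35 SE, edgeR adjusted p = 0.000527). Cdc25b had 115, 105 and 104 CPM in iRGCs and 27.9, 39.1 and 31.8 CPM in cRGCs (1.72 ± 0.15 SE, edgeR adjusted p = 0.000205). Its cRGC level was thus nearer to that of iRGCs, with no overlap in either phosphatase.

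Cks2, a small partner of Cdk1, was the single gene not tested. Its counts were between 0 and 21 per library, or 0.225, 0.649 and 0.662 CPM in iRGCs and 0, 0.0690 and 0.258 CPM in cRGCs. Among windows of 50 bases along its transcripts, the read length of the study, 74.5% occur elsewhere in GRCm38 as well, so that reads from Cks2 could fail to align uniquely, and uniquely aligned reads alone were counted. The same share was 36.3% for Ccnb1, 10.5% for Cdc20 and 7.68% for Plk1, so their CPM may be too low in all libraries. How much this changed their counts was not tested.

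The kinases Plk1 and Aurka, which build the spindle poles, and Tpx2, the activator of Aurka on microtubules, had a median of 2.41 and almost equal changes. Plk1 had 60.7, 67.4 and 48.6 CPM in iRGCs and 7.69, 14.6 and 10.9 CPM in cRGCs (2.41 ± 0.25 SE, edgeR adjusted p = 0.000234). Aurka had 61.8, 53.1 and 41.6 CPM in iRGCs and 5.997, 13.5 and 10.5 CPM in cRGCs (2.38 ± 0.29 SE, edgeR adjusted p = 0.000403). The populations did not overlap in either kinase, and cRGC replicate 2 was the highest cRGC library in both.

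The chromosomal passenger complex, which corrects faulty attachments and later directs cytokinesis, was higher in all 4 subunits, with a median of 2.38. Its kinase Aurkb had 112.5, 89.9 and 76.0 CPM in iRGCs and 11.6, 21.4 and 11.2 CPM in cRGCs (2.65 ± 0.27 SE, edgeR adjusted p = 0.000238). The scaffold Incenp had 199, 150.4 and 157 CPM in iRGCs and 35.9, 59.4 and 45.3 CPM in cRGCs (1.85 ± 0.20 SE, edgeR adjusted p = 0.000245). Birc5 (survivin) and Cdca8 (borealin), which bring the complex to the centromere, differed by 2.53 and 2.23. Per kilobase of exon, Incenp stood at 1.25 ± 0.14 (SD, n = 3) times the level of Aurkb in iRGCs and at 2.25 ± 0.45 times in cRGCs, without overlap. This ratio, like the others within a complex given here, was chosen after the values were seen and has no test.

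Of the spindle checkpoint, all 5 genes were higher in iRGCs, with 1 far below the others. Bub1, the kinase that marks unattached kinetochores, had 115, 93.4 and 86.5 CPM in iRGCs and 10.99, 22.1 and 13.4 CPM in cRGCs (2.67 ± 0.26 SE, edgeR adjusted p = 0.000213). Bub3, the partner that carries Bub1 and Bub1b to the kinetochore, had 109, 113 and 106 CPM in iRGCs and 76.0, 75.8 and 78.4 CPM in cRGCs (0.51 ± 0.10 SE, edgeR adjusted p = 0.00333). Its libraries did not overlap, and the spread within cRGCs was small, unlike that of the other checkpoint genes. Mad2l1, Bub1b and Ttk, the checkpoint proteins Mad2, BubR1 and Mps1, differed by 2.33, 2.17 and 2.35. Per kilobase, Bub3 stood at 0.452 ± 0.015 (SD, n = 3) times the level of Bub1b in iRGCs and at 1.47 ± 0.31 times in cRGCs, so Bub3 was the less abundant transcript in iRGCs and the more abundant one in cRGCs.

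The 9 centromere and kinetochore genes all rose, with a median of 2.47. The outer Ndc80 complex, which binds microtubules, was even: Ndc80 differed by 2.66, Nuf2 by 2.46, Spc24 by 2.54 and Spc25 by 2.47. Ndc80 itself had 68.1, 76.1 and 71.4 CPM in iRGCs and 6.73, 15.1 and 12.1 CPM in cRGCs (2.66 ± 0.26 SE, edgeR adjusted p = 0.000222). Cenpk, of the inner kinetochore, had the lowest change, with 19.8, 20.4 and 19.9 CPM in iRGCs and 3.08, 8.77 and 2.87 CPM in cRGCs (2.03 ± 0.42 SE, edgeR adjusted p = 0.00479). In Cenpk the iRGC libraries were almost level, and cRGC replicate 2 was more than 2 times as high as the other cRGC libraries. The centromeric histone variant Cenpa differed by 2.47, the inner kinetochore subunit Cenph by 2.36, the motor Cenpe by 2.64 and the corona protein Cenpf by 2.52.

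Within the Ndc80 complex the proportions of the transcripts overlapped between populations. Per kilobase, Spc25 stood at 3.59 ± 0.20 (SD, n = 3) times the level of Ndc80 in iRGCs and at 4.11 ± 0.83 times in cRGCs. Spc24 stood at 1.24 ± 0.02 and 1.24 ± 0.46 times, and Nuf2 at 1.16 ± 0.15 and 1.34 ± 0.22 times. The encoded complex holds 1 copy of each subunit.

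**Figure D2:**
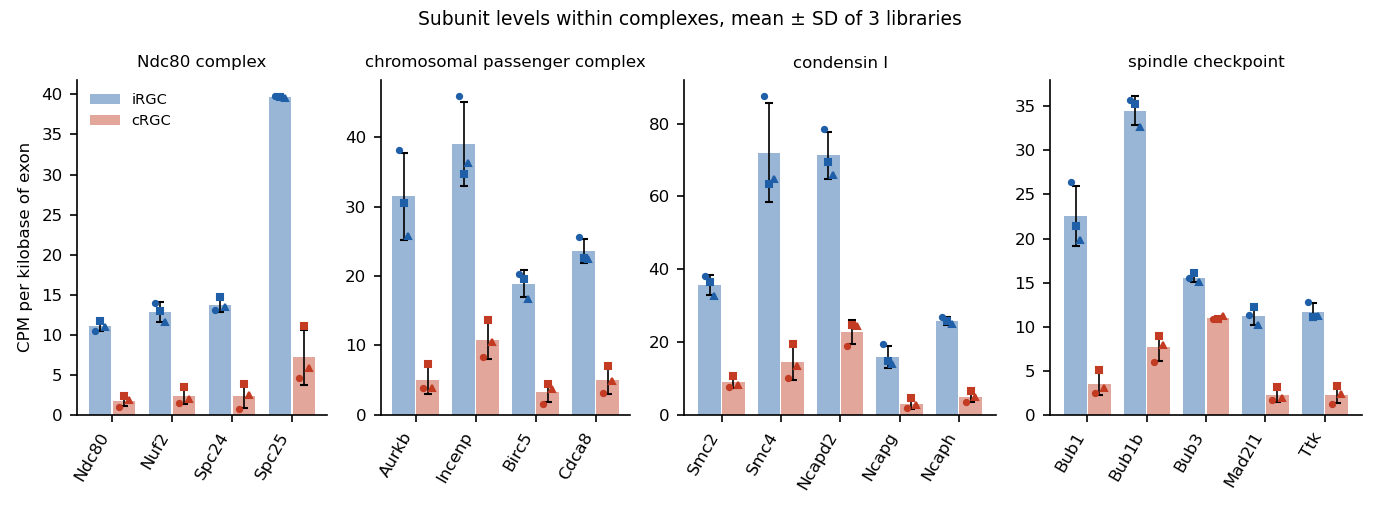
CPM per kilobase of exon of the subunits of 4 assemblies (bars, mean of 3 libraries; error bars, SD; points, libraries; blue, iRGCs; red, cRGCs). In cRGCs, Bub3 and Ncapd2 are above the other subunits of their panels, while in iRGCs Bub3 is below Bub1 and Bub1b.

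Condensin I and the other proteins of chromosome structure included the most abundant transcripts. Per kilobase, Top2a, the topoisomerase that untangles sister chromatids, reached 108 ± 20.9 (SD, n = 3) in iRGCs and 18.2 ± 9.16 in cRGCs. Mki67, the Ki-67 protein that coats mitotic chromosomes, reached 92.4 ± 15.7 and 15.5 ± 7.45. The iRGC levels of Top2a and Mki67 do not differ beyond their spread, and the 2 genes are followed by Smc4 at 72.0 ± 13.5 and Ncapd2 at 71.2 ± 6.45. In CPM, Mki67 had 1112, 829 and 849 in iRGCs and 89.6, 237 and 141 in cRGCs (2.58 ± 0.32 SE, edgeR adjusted p = 0.000406).

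All 7 genes of this group were higher in iRGCs, and the condensin I subunits fell into unequal changes. Ncapd2 had 491, 435 and 413 CPM in iRGCs and 118, 155 and 153 CPM in cRGCs (1.65 ± 0.13 SE, edgeR adjusted p = 0.000205). The other regulatory subunits Ncaph, which closes the ring, and Ncapg differed by 2.38 each. The ATPases Smc2 and Smc4, which condensin II shares, differed by 2.01 and 2.32. Per kilobase, Ncapd2 stood at 2.76 ± 0.14 (SD, n = 3) times the level of Ncaph in iRGCs and at 4.72 ± 0.81 times in cRGCs, without overlap. Ncapg stood at 0.616 ± 0.091 and 0.598 ± 0.095 times the level of Ncaph, which overlapped.

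Of the 4 genes of anaphase onset, 3 were higher in iRGCs and Pttg1 did not pass. Ube2c, the ubiquitin-conjugating enzyme of the anaphase-promoting complex, had 96.3, 67.5 and 61.2 CPM in iRGCs and 10.2, 17.8 and 13.3 CPM in cRGCs (2.45 ± 0.25 SE, edgeR adjusted p = 0.000234). The activator Cdc20 and the separase Espl1, which cuts cohesin, differed by 2.35 and 2.38. Pttg1, the securin that holds separase inactive, had 10.9, 9.74 and 13.7 CPM in iRGCs and 12.8, 7.46 and 9.71 CPM in cRGCs (0.19 ± 0.28 SE, edgeR adjusted p = 0.626). Its libraries overlapped, and cRGC replicate 1 was the highest cRGC library, whereas it was the lowest for 40 of the 45 genes. Per kilobase, Pttg1 reached 5.71 ± 1.01 (SD, n = 3) in iRGCs and Espl1 11.6 ± 0.86, while in cRGCs Pttg1 reached 5.00 ± 1.34 and Espl1 2.23 ± 0.72. Only 0.693% of the 50-base windows of Pttg1 occur elsewhere in the genome.

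The 6 genes of the spindle and of cytokinesis were all higher, with a median of 2.47. Aspm, a spindle pole protein that keeps progenitor divisions symmetric, had 180, 160 and 152 CPM in iRGCs and 14.4, 35.8 and 22.5 CPM in cRGCs (2.76 ± 0.29 SE, edgeR adjusted p = 0.000242). Racgap1, the GTPase-activating subunit of centralspindlin, had 248, 206 and 215 CPM in iRGCs and 48.0, 74.1 and 60.7 CPM in cRGCs (1.87 ± 0.17 SE, edgeR adjusted p = 0.000205). Ect2, the exchange factor that Racgap1 recruits to start the cleavage furrow, differed by 2.48, the furrow scaffold Anln by 2.45, the microtubule bundler Prc1 by 2.095 and the spindle protein Nusap1 by 2.53. Per kilobase, Racgap1 stood at 1.33 ± 0.06 (SD, n = 3) times the level of Ect2 in iRGCs and at 2.11 ± 0.30 times in cRGCs.

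For 5 of the 45 genes, over 10% of the exonic bases also belong to another gene: Ube2c (22.8%, with Tnnc2), Ncapg (13.4%, with Lcorl), Cdc25c (12.7%, with Gm3550), Ccna2 (12.5%, with Exosc9) and Prc1 (11.1%, with Rccd1). The strand setting of the counting is not given in the sources used here, so reads of an antisense neighbour cannot be told apart from those of the gene.

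The genes moved together across the libraries of a population. Of the 3 cRGC libraries, replicate 2 was the highest for 42 of the 45 genes, against 33.2% of all tested genes, and replicate 1 the lowest for 40, against 38.4%. The median fold of cRGC replicate 2 over replicate 1 was 2.23 over the 44 tested genes. Of the 3 iRGC libraries, replicate 1 was the highest for 34 genes, against 30.0% of all tested genes, and replicate 3 the lowest for 32, against 26.1%. The median coefficient of variation was 39.3% in cRGCs, where all tested genes had 14.1%, and 10.3% in iRGCs, where all tested genes had 19.3%. The genes share libraries and one another's cells, so their common order is not a set of independent observations.

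Other genes of the pathway were read from 7 lists with 88 genes, all tested, of which 67 were higher in iRGCs, 6 lower and 15 did not pass, against 23.3% higher and 23.1% lower of all tested genes, with a median log2 fold change of 1.03. In every alternative, 61 passed as higher and 4 as lower. The Mis12, Knl1, Ska and RZZ genes of the outer kinetochore had a median of 2.36, with 12 of 13 higher and 1 lower. Ska1, which holds kinetochores on shortening microtubules, differed by 3.25 ± 0.58 (SE, edgeR adjusted p = 0.00224). Zwint, which binds the RZZ complex to Knl1, had 236, 237.5 and 311.5 CPM in iRGCs and 489, 485 and 484 CPM in cRGCs and fell by 0.89 ± 0.13 on the log2 scale (SE, edgeR adjusted p = 0.000738). It was the gene of the 7 lists with the lowest fold change.

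Of the other checkpoint and mitotic entry genes, 13 of 14 were higher and 1 lower, with a median of 2.03. Of these, Mad1l1, the partner of Mad2, passed in 3 of 12 alternatives (adjusted p of up to 0.226) and the others in all. Sgo1, shugoshin, the protector of centromeric cohesin, differed by 2.66, and Mad2l2, a relative of Mad2 with a role in DNA repair, fell by 0.74. Of the other inner kinetochore genes, 15 of 17 were higher, 1 lower and 1 did not pass, with a median of 1.22. Of these calls, 13 higher and 0 lower passed in every alternative: Cenpc1 and Cenpo, whose libraries overlapped, passed in 6 of 12 alternatives and Cenpt in 10. Cenpm had the highest change there, at 2.85, and Cenpt the lowest, having fallen by 0.33. None of the 44 tested mitosis genes was lower.

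Cohesin and condensin II differed less. All 11 cohesin genes were higher, with a median of 0.71, from 0.32 for Pds5b, a regulator of cohesin release whose call was lost without iRGC replicate 2 or either of cRGC replicates 1 and 3 (adjusted p of up to 0.155), to 2.74 for Esco2, which acetylates cohesin in S phase. The cohesin ring itself, Smc1a, Smc3 and Rad21, differed by 0.46, 0.48 and 0.79, values named here after they were seen. The 3 subunits that condensin II does not share with condensin I were higher with a median of 0.66, from 0.56 for Ncaph2 to 2.08 for Ncapg2. The MuvB, B-Myb and FoxM1 list also holds E2f4, E2f5, Tfdp1, Tfdp2, Rbl1 and Rbl2. Of its genes, 11 of 13 were higher and 2 did not pass, with a median of 0.98. Lin52, a MuvB subunit, was lost without cRGC replicate 2 (adjusted p = 0.104). Foxm1, the activator of G2 genes, differed by 2.42, and the pocket protein Rbl2, a repressor in resting cells, had -0.37 ± 0.19 (SE, edgeR adjusted p = 0.152).

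The anaphase-promoting complex, the ligase that Cdc20 activates, showed the smallest median of the 7 lists, at 0.096. Of its 17 genes, 2 were higher, 3 lower and 12 did not pass, with 1 higher and 2 lower in every alternative. These shares of 2 and 3 in 17 were below the 23.3% and 23.1% of all tested genes. The highest was Fbxo5, the inhibitor Emi1, at 2.43, and the lowest Anapc5, a core subunit, which fell by 0.51. The geometric mean level of the list was 69.3, 77.8 and 79.9 CPM in iRGC replicates 1, 2 and 3 and 65.5, 68.0 and 69.0 CPM in the cRGC replicates.

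**Figure D3:**
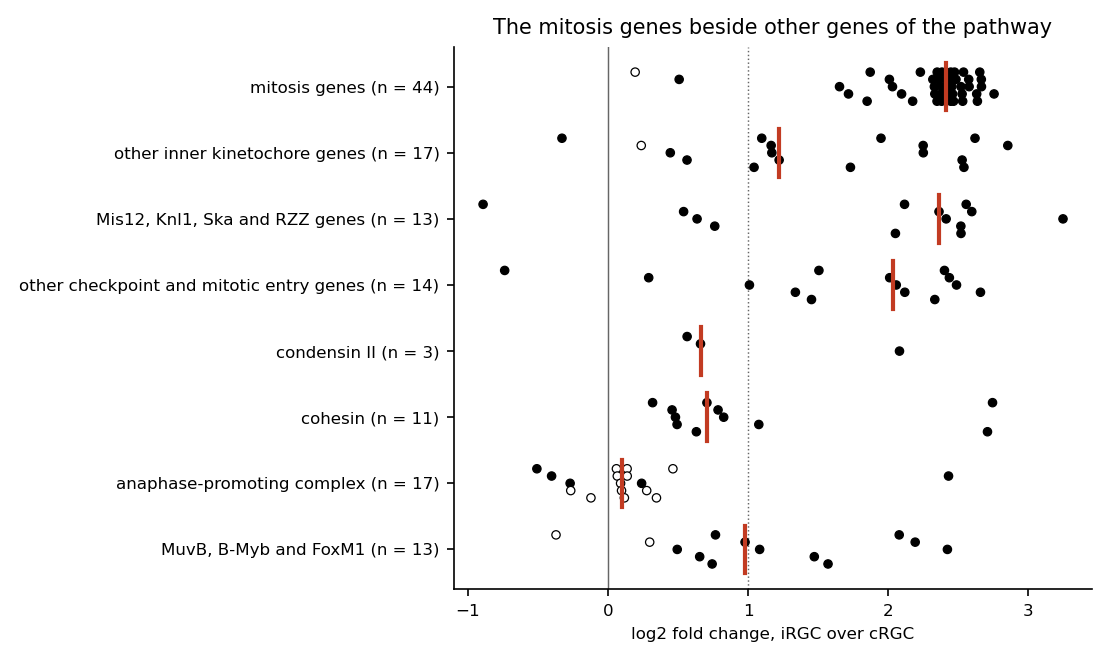
Log2 fold change of iRGCs over cRGCs of the mitosis genes and of 7 other lists of the pathway (filled points, adjusted p under 0.1 in edgeR; open points, not past; red bars, medians; lines at 0 and 1). The mitosis genes gather around 2.41 with Pttg1 and Bub3 apart, and the anaphase-promoting complex gathers around 0.096 with Fbxo5 apart.

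The levels were set beside markers of the cell types that the sorted samples could hold. As a geometric mean with a pseudocount of 0.5 CPM, the 45 mitosis genes had 109, 98.9 and 92.1 CPM in iRGC replicates 1, 2 and 3 and 14.7, 29.3 and 20.3 CPM in the cRGC replicates. The 14 retinal progenitor markers had 317, 296 and 248 CPM in iRGCs and 33.2, 76.1 and 50.1 CPM in cRGCs, with the libraries in the same order, and summed to 8070, 7127 and 6265 CPM and to 727, 1823 and 1182 CPM. All 14 were higher in iRGCs, with a median log2 fold change of 2.51, and the most abundant was the cyclin Ccnd1 with 3362, 2649 and 2520 CPM in iRGCs and 277, 779 and 471 CPM in cRGCs. Ccnd1 is itself a cell cycle gene, and the paper reports the markers Lhx2, Sox2 and Sox9 as expressed in iRGCs. Within a library, the mitosis genes stood at 0.349 ± 0.020 (SD, n = 3) times the progenitor markers in iRGCs and at 0.411 ± 0.029 times in cRGCs. The mitosis genes were 4.66 times as high in iRGCs and the progenitor markers 5.40 times. The 4.66 includes Cks2, whose level is near the pseudocount, and Pttg1 and Bub3, which had the smallest fold changes. The lower ratio in iRGCs is thus not read as a difference between the lists. The part of progenitor cells in the differences of the mitosis genes was not tested.

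The 10 neurogenic precursor markers, of cells at or after their last division, were all higher in iRGCs as well, with a median of 1.82. Their level was 171, 185 and 161 CPM in iRGCs and 34.3, 63.0 and 49.7 CPM in cRGCs. Hes6, a Notch pathway regulator, was the most abundant by the mean over all 6 libraries. Within iRGCs, Btg2 had a higher mean than Hes6 (306 and 293 CPM), and within cRGCs Insm1 did (118 and 105 CPM). Summed, the 10 markers reached 1862, 2062 and 1790 CPM against 424, 692.8 and 613 CPM. Relative to them, the mitosis genes stood at 0.581 ± 0.051 (SD, n = 3) in iRGCs and at 0.434 ± 0.028 in cRGCs. Of the 12 retinal ganglion cell markers, 11 were lower in iRGCs and Thy1 did not pass, with a median of -1.94. Their level was 135, 163 and 262 CPM in iRGCs and 744, 660 and 624 CPM in cRGCs. The neurofilament Nefm was the most abundant by the mean over all 6 libraries. Stmn2 lay above it in iRGC replicates 1 and 2, and Gap43 in cRGC replicates 1 and 2. Ganglion cell markers were thus present in all libraries. Their sum was 2356, 3297 and 5071 CPM in iRGCs and 13270, 12010 and 14580 CPM in cRGCs. The iRGC library with the highest ganglion cell level, replicate 3, had the lowest level of the mitosis genes among iRGCs.

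Vascular and blood markers set iRGC replicate 2 apart. The 8 endothelial markers had a level of 14.6, 45.1 and 2.53 CPM in iRGCs and 1.52, 1.64 and 1.26 CPM in cRGCs, and a summed level of 446, 603 and 433 CPM against 87.2, 107.5 and 70.3 CPM. Most of the sum was Kdr, a receptor for vascular growth factor, with 366, 320.5 and 418 CPM in iRGCs and 83.7, 103 and 67.6 CPM in cRGCs, and the other 7 genes summed to 80.1, 283 and 15.1 CPM against 3.54, 4.56 and 2.71 CPM. The 5 that were tested were higher in iRGCs, and the defining genes Cdh5 and Tie1 were at 0 in all cRGC libraries. Kdr and Cldn5 passed in every alternative, but Flt1 passed in 10, Pecam1 in 9 and Esam in 6 of the 11 alternatives that tested them (adjusted p of up to 0.537). Pecam1 was lost with limma voom and without iRGC replicate 2, Flt1 with limma voom, and Esam with limma voom, with the replicate block and without iRGC replicate 2, cRGC replicate 2 or cRGC replicate 3. Libraries overlapped for Pecam1 and Esam. The geometric means and sums of the mural, erythroid and microglia lists were also highest in iRGC replicate 2. Single genes could differ: the mural gene Acta2 had 0.032, 0.402 and 1.58 CPM in iRGC replicates 1, 2 and 3. The mural list had 3.02, 15.5 and 3.57 CPM in iRGCs and 1.15, 1.49 and 1.25 CPM in cRGCs, with 3 of 4 tested genes higher. Its sums were 132, 274 and 107 CPM against 20.8, 31.2 and 22.4 CPM. Notch3 was the most abundant and, in all libraries but iRGC replicate 2, most of the sum. Its levels were 113, 117 and 83.5 CPM in iRGCs and 17.1, 26.7 and 18.6 CPM in cRGCs. The erythroid list had 1.56, 7.48 and 2.12 CPM in iRGCs and 0.50, 1.06 and 0.54 CPM in cRGCs, with 4 of 4 tested genes higher, Hbb-bs the most abundant and sums of 12.2, 92.7 and 15.2 CPM against 0, 5.11 and 0.258 CPM. The microglia list had 1.78, 2.73 and 2.31 CPM in iRGCs and 0.614, 0.980 and 0.666 CPM in cRGCs, with 4 of 6 tested genes higher, Csf1r the most abundant and sums of 17.8, 26.0 and 17.7 CPM against 1.19, 4.42 and 1.45 CPM. The erythroid sum was thus near 0 in cRGC replicates 1 and 3, and the geometric means of all 4 lists were highest in iRGC replicate 2. Calls passed in every alternative for 2 of the 3 mural genes called (Notch3 and Pdgfrb), 1 of the 4 erythroid genes (Alas2) and 2 of the 4 microglia genes. Of 11 alternatives, Hba-a1 passed in 9, Hbb-bs in 8, Hbb-bt in 6, C1qa in 6 and C1qb in 7 (adjusted p of up to 0.463). Leaving out iRGC replicate 2 ended each of these 5 calls, and limma voom ended those of the 3 globin genes. Leaving out other libraries ended those of Hbb-bt, C1qa and C1qb, and a further alternative ended that of Hbb-bs.

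Beside endothelial levels of 14.6, 45.1 and 2.53 CPM in iRGC replicates 1, 2 and 3, the mitosis genes stood at 109, 98.9 and 92.1 CPM. The part of vascular and blood cells in the differences of the mitosis genes was not tested. Without iRGC replicate 2, 43 of the mitosis genes were higher in iRGCs and 0 lower, with a median log2 fold change of 2.40. Without iRGC replicate 1, the library with little Slc6a4, the counts were the same and the median was 2.36. Each of these fits kept a library with endothelial transcripts. The 7 endothelial genes other than Kdr summed to 80.1 CPM in iRGC replicate 1 and 283 CPM in iRGC replicate 2. Neither fit is therefore a test of the part of vascular cells.

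**Figure D4:**
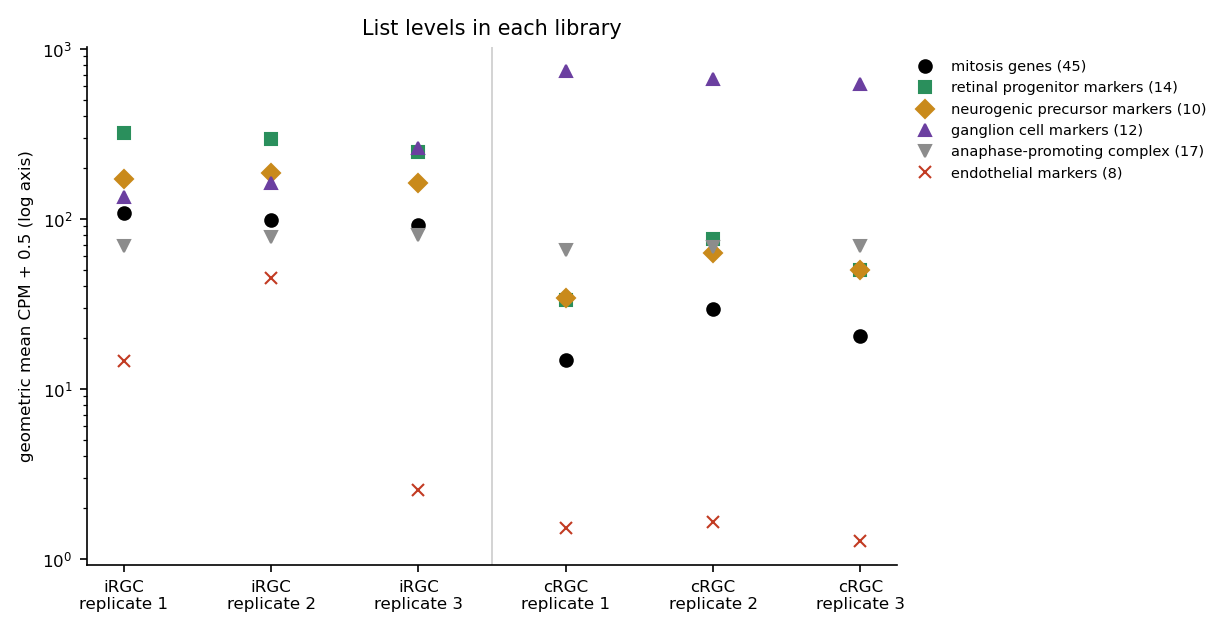
Geometric mean CPM, on a log axis, of 6 gene lists in each of the 6 libraries. The mitosis genes (black), the progenitor markers (green) and the neurogenic markers (orange) are high in iRGCs and highest in replicate 2 among cRGCs, the ganglion cell markers (purple) are high in cRGCs, the anaphase-promoting complex (grey) is nearly level, and the endothelial markers (crosses) are highest in iRGC replicate 2.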

How the data were processed

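RNA-seq was read for 6 libraries, 3 per population; another 13 samples, of ATAC-seq, were not analysed here. Per the submitters' processing notes and the study's methods, HISAT2 2.1.0 placed the reads on mm10 with default parameters, and the authors counted them with HTSeq 0.11.1 on Ensembl genes of GRCm38 and deposited raw counts, 1 table per library. Symbols, positions and exon lengths came from GENCODE M21 for 46574 of 47069 genes. HTSeq's summary tallies (8.09% to 16.8% without a gene, 0.618% to 0.649% ambiguous, 25.9% to 33.0% not unique, of alignments) entered neither library sizes nor tests.

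The test was that of edgeR 4.0.16 in R 4.3.3 (filterByExpr, TMM, quasi-likelihood test without a block, Benjamini-Hochberg over 15941 genes). Genes were called at an adjusted p under 0.1. SEs were the absolute log2 fold change over the square root of F. At a biological coefficient of variation of 36.3% in groups of 3, genes with few counts could show large changes only. Scripts were tested on simulated data. Promoter windows came from RefSeq (GRCm38.p6), the first listed per gene. All mitosis genes are named; values by library are given for the genes with the largest and smallest change of each role and those that did not pass. In each pathway list the extremes are named. In each cell type list, the gene named as most abundant had the highest mean CPM over all 6 libraries. It need not lead in each population or library. Genes and lists were chosen with earlier results of these data known. The alternatives were DESeq2's size factors, DESeq2 1.42.0, limma 3.58.1 voom, other filters on low counts, a stricter threshold, a replicate block, each library left out, other pseudocounts and CPM without TMM factors. Figures were drawn with matplotlib 3.10.9.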

Additional observations from a re-analysis of the deposited data

How the results depend on the processing

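The counts of 43 mitosis genes higher in iRGCs, 0 lower and 42 with a log2 fold change above 1 were the same with DESeq2's size factors, DESeq2's Wald test, limma voom, no filter, at least 10 counts in every library, an adjusted p under 0.05 and each library left out. The median log2 fold change was between 2.41 and 2.45 over the settings of normalization, test and filter, and between 2.16 (without cRGC replicate 1) and 2.75 (without cRGC replicate 2) when a library was left out. The adjusted p of the 43 genes reached 0.0210 at most over these alternatives. Cks2 did not pass in any of the alternatives that tested it. As a ratio of geometric mean levels, the mitosis genes had a log2 value of 2.22, and between 2.18 and 2.41 with other pseudocounts or without TMM factors. Replicate numbers are shared between the populations in the labels, but the deviations of same-numbered libraries correlated at -0.0121, -0.0237 and -0.0550, so the numbers were not taken to pair the libraries. With the replicate block, 43 genes were higher, 0 lower and 42 above 1, with a median of 2.45. Of the other pathway genes, 62 to 69 were higher and 4 to 8 lower over the alternatives, against 67 and 6, and none of the calls of named genes that were lost changed direction. Thy1 passed in 4 alternatives, Onecut2 in 6 and Rbl2 in 1, without iRGC replicate 3 (adjusted p = 0.034). Among the genes named, the reversed values, none of which passed, were those of Slc6a4 with limma voom (-0.86), the replicate block (-0.54) and without iRGC replicate 3 (-1.11), and of the pigment gene Tyrp1 (-0.054) with limma voom (1.10), the block (0.92), without iRGC replicate 3 (0.20) and without cRGC replicate 2 (1.60). With each library left out, Slc6a4 ranged from -1.11 to 0.98 and Tyrp1 from -0.62 to 1.60.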

Other observations

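Markers of other retinal cell types were read beside the mitosis genes. Of the 5 tested photoreceptor precursor markers, 4 were higher in iRGCs and Rxrg lower. The most abundant by the mean over all 6 libraries, Otx2, had 269, 213 and 221 CPM in iRGCs and 30.9, 68.9 and 36.1 CPM in cRGCs. Its highest cRGC library was replicate 2, as for most mitosis genes. Within cRGCs, Rxrg had a higher mean than Otx2 (67.9 and 45.3 CPM). Of the 9 amacrine and horizontal cell markers, 5 were higher and 4 did not pass, and the most abundant, Onecut2, had 150, 187 and 119 CPM in iRGCs and 178, 174 and 320 CPM in cRGCs. Onecut1 and Onecut2, which did not pass, had log2 fold changes of -0.58 and -0.56, while those of the rest of the list were above 0. Of the 3 tested fibroblast markers, 1 was higher and 2 did not pass, and Lum was at 0 in all libraries. Col1a2 was the most abundant of this list by the mean over all 6 libraries. Pdgfra lay above it in every cRGC library and in iRGC replicate 3. The 1 tested lens marker and the 3 tested pigment epithelium markers did not pass. By the mean over all 6 libraries, the most abundant genes of these lists were Cryaa and Tyrp1. Cryaa was counted in iRGC replicate 2 alone, at 4.92 CPM. Within iRGCs, Dct and Pmel had higher means (1.20 and 0.87 CPM) than Tyrp1 (0.73 CPM).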
